A study of Schizosaccharomyces pombe with 14 samples.

Results

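The nuclear tRNA genes of fission yeast, Schizosaccharomyces pombe, were taken from the count table by name. They are the genes whose identifier contains TRNA and does not begin with SPMIT, the prefix of the mitochondrial set. The rule gave 171 of the 7049 genes of the table, and 25 mitochondrial tRNA genes were left aside. The study used strand-specific RNA-seq to ask what changes when Pac1, the RNase III of this yeast, is lost from the nucleus or is impaired. It also asked how transcripts change when the 3′-5′ exonuclease Dis3 or the 5′-3′ exonuclease Dhp1 is depleted. Of the 14 libraries, 6 belong to a pac1-ts experiment, 4 to a Pac1 anchor-away experiment and 4 to an exonuclease experiment.

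In the pac1-ts experiment, 2 independent clones (FBY2604 and FBY2605) carried the point mutation pac1-G1024A in the background ade6M210 leu1-32 ura4-D18 his3-D1 (h+), and the wild type (WT) was the parent FBY13 of the same background. Each strain was sampled at 37 °C after 2 h of shift and at 30 °C, in minimal medium, so that each temperature had 2 mutant libraries and 1 WT library. In the anchor-away experiment, Pac1-AA cells (FBY2300, Pac1-FRB-GFP::natMX6) were compared with CTL cells (FBY2066), with 2 libraries each. Both strains carried torSE::KanMX6, fkh1::URA+ and leu1-32::(nmt1-rpl13-2FKBP12-leu1+) with ura4-D18, leu1-32 and ade6-M210 (h-), and both received rapamycin at 2.5 µg/ml for 2 h, which takes an FRB-tagged protein out of the nucleus. The exonuclease experiment has 1 library per strain, all from medium with 60 µM thiamine at 30 °C. All 4 strains carry leu1-32, ura4-D18 and his3-D1, and the depletion strains have the thiamine-repressed nmt81 promoter before the gene. They are FBY1818 (P81nmt1-dhp1::kanMX6 and P81nmt1-dis3::natMX6), FBY721 (p81nmt1::kanMX6-dis3), FBY1792 (P81nmt1-dhp1::kanMX6, ade6-M210, h-) and the wild type FBY106 (ade6-M216, h+). The mating type and the ade6 allele of FBY1818 and FBY721 are marked as unknown in the labels. In its own list of datasets the study gives the pac1-ts libraries as replicates of one strain and has replicates of WT as well. The sample labels, which name separate clones and a single WT library at each temperature, were followed here. The study calls the anchor-away libraries of a strain biological replicates, and the p-values measure the spread between them.

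RNA polymerase III transcribes tRNA genes from promoter elements that include some inside the gene, and stops at a run of T residues just after the gene. RNase P cuts the 5′ leader, RNase Z the 3′ trailer, the CCA end is added by a nucleotidyltransferase, and introns next to the anticodon are removed by a splicing endonuclease and a ligase. Precursors that are misprocessed are known targets of the nuclear exosome, which Dis3 equips with its main nuclease activity, and undermodified mature tRNAs are known from budding yeast to be degraded from the 5′ end by Rat1, the counterpart of Dhp1, and Xrn1. A few serine and methionine tRNA genes of fission yeast lie head to tail and are known to be transcribed together as a dimeric precursor.

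All 171 genes had the same coordinates in the table and in the RefSeq annotation of assembly ASM294v3, with 56 on chromosome I, 68 on chromosome II and 47 on chromosome III. They cover 20 amino acids. An anticodon was found for 168 of them, of 45 kinds. Mature sequences were 71 to 86 bases long, and 44 genes had an annotated intron of 7 to 30 bases. Only 32 genes had a mature sequence of their own, whereas the other 139 fell into 32 families of identical copies. Reads were 50 bases from each end. For 39 genes no 50-base stretch that overlaps the gene, flanks included, is unique in the genome. Across the 14 libraries 26 genes had under 10 counts in total, of which 23 had no unique stretch and 3 overlapped another gene on the same strand. A count of such a gene is therefore a minimum, and copies of a family can be told apart only by the flanks or introns that a fragment reaches.

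The sequences of the genes on which the results turn are printed here from RefSeq ASM294v3, 5′ to 3′ on the strand of the gene. The first set gives identical copies and genes that stood out in the exonuclease or the pac1-ts libraries, with the anticodon in capitals. The scn1 gene lies at chromosome I:3157430-3157501 (+), scn2 at I:1195592-1195663 (-), SPBTRNAPRO.07 at II:2939715-2939786 (+), SPATRNAVAL.02 at I:703075-703147 (-), SPBTRNALEU.10 at II:3914043-3914121 (+) and SPBTRNAGLY.03 at II:180994-181064 (-).
scn1 (SPATRNAALA.03): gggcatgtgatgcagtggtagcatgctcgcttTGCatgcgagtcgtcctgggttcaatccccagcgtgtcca
scn2 (SPATRNAALA.02): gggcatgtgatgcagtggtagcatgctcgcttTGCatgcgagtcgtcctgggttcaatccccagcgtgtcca
SPBTRNAPRO.07: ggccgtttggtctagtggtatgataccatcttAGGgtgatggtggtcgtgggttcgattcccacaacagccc
SPATRNAVAL.02: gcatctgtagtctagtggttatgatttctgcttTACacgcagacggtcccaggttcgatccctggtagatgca
SPBTRNALEU.10: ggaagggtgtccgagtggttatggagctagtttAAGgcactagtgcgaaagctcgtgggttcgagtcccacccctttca
SPBTRNAGLY.03: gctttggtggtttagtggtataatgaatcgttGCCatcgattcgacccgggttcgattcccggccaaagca
The genes scn1 and scn2 were identical over the whole gene and differed after it. Their next 40 bases are shown with runs of 4 or more T in capitals, at I:3157502-3157541 for scn1 and I:1195552-1195591 for scn2.
scn1 downstream: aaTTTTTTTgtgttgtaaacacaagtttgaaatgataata
scn2 downstream: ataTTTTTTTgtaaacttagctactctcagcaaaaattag

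The second set gives a pair of genes with an intron that were among the most counted in the exonuclease libraries, spl1 (SPATRNAPRO.02, I:1314924-1315020, -) and SPATRNATYR.01 (I:1746464-1746547, +), with the intron in capitals.
spl1: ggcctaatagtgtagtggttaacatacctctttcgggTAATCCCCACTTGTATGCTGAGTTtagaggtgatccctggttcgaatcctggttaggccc
SPATRNATYR.01: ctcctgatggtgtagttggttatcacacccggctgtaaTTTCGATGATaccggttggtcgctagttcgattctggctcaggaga
The last sequence is a head-to-tail pair, SPATRNASER.01 followed by SPATRNAMET.01 (I:1096369-1096545, +), and is shown because the upstream gene changed with the heat shift. The 7 bases between the genes are in capitals.
SPATRNASER.01-SPATRNAMET.01: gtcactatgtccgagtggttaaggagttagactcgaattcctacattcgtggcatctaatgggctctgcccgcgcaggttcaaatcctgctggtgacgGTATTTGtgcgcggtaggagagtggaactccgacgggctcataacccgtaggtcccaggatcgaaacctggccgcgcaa
A run of 4 or more T began within 5 bases of the gene end in 131 of the 171 genes and was missing from the next 40 bases in 4. These 4 were the upstream genes of the 4 head-to-tail pairs, SPATRNASER.01, sup3, sup9 and SPBTRNAMET.05, each 5 or 7 bases before its partner.

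The pac1-ts libraries held 15997568 to 17743083 counted fragments each, the anchor-away libraries 19877576 to 53258725 and the exonuclease libraries 6836270 to 9470347. The tRNA genes took 345 to 826 CPM (counts scaled to the total of the library) in the pac1-ts experiment, 17.1 to 19.9 CPM in the anchor-away experiment and 6.29 to 406 CPM in the exonuclease experiment. The pac1 gene itself had 110 and 113 CPM in the pac1-ts clones at 30 °C against 216 CPM in WT, and 94.4 and 85.1 CPM at 37 °C against 79.9 CPM in WT. It had 162 and 160 CPM in Pac1-AA against 93.7 and 90.6 CPM in CTL, but a point mutation and a relocated protein are not checked by counts. Since the kits differed between the experiments, each comparison was made within 1 experiment. The CPM values up to here are scaled to library totals. From here on, the values of the pac1-ts and anchor-away comparisons are CPM scaled by the TMM factors of edgeR unless counts or library totals are named.

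**Figure D1:**
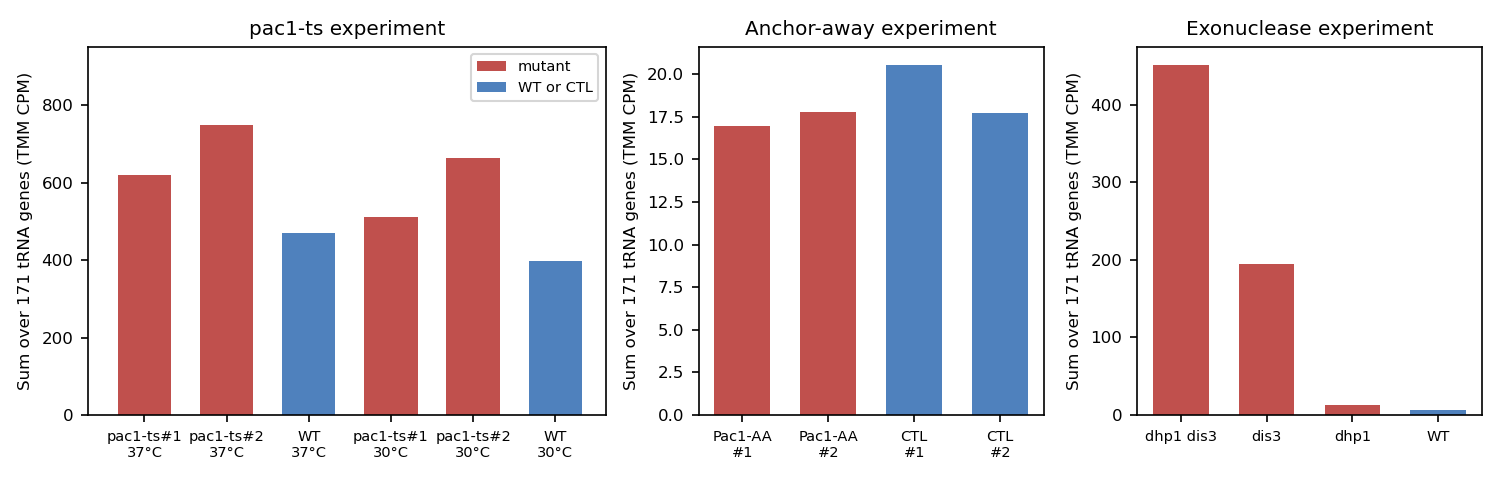
Sum of the 171 nuclear tRNA genes in each library (y axis, TMM-scaled CPM) in the pac1-ts, anchor-away and exonuclease experiments, 1 bar per library. Both pac1-ts clones stand above WT at each temperature (512 and 664 against 398 at 30 °C), the anchor-away bars lie between 17.0 and 20.6, and the libraries labelled Pnmt81-dhp1 Pnmt81-dis3 and Pnmt81-dis3 stand above the other exonuclease libraries.

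The pac1-ts comparison asks how the mutation affects tRNA genes at the growth temperature and after the shift. Summed over the 171 genes, tRNA fragments were higher in both pac1-ts clones than in WT at both temperatures, by a modest factor, and nearly every amino acid took part. At 30 °C the sums were 512 and 664 CPM in the pac1-ts clones, against 398 CPM in WT. The mutant mean was 588 ± 108 CPM (SD, n = 2), and the clones stood 1.29-fold and 1.67-fold above WT. At 37 °C the sums were 621 and 749 CPM in the pac1-ts clones, against 470 CPM in WT, which is 1.32-fold and 1.59-fold. The sums have no test of their own, since each temperature had 1 WT library. CPM is a share of the library, so more tRNA and less of other RNA cannot be told apart. With library totals in place of TMM the folds were 1.30 and 1.79 at 30 °C and 1.26 and 1.52 at 37 °C.

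Of the 171 genes, 114 had more CPM in both pac1-ts clones than in WT at 30 °C, beside 40.2% of the 7049 genes of the table, and 11 had fewer, beside 42.7%. At 37 °C 120 had more, beside 41.3%, and 12 had fewer, beside 41%. The shares of all genes are large because a single WT library stands against a pair of clones. By amino acid, the summed level was higher in both clones for 19 of 20 at 30 °C and for 20 of 20 at 37 °C. The exception was tyrosine at 30 °C, with 6.39 and 11.3 CPM in the pac1-ts clones against 6.56 CPM in WT. The fold of the mutant mean over WT ran from 1.12 for isoleucine to 1.71 for valine at 30 °C, and from 1.28 for aspartate to 1.73 for isoleucine at 37 °C.

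The filter on low counts kept 137 of the 171 genes, and the 34 left out held 0.387% of the tRNA counts at 30 °C. As a description of those 137, the median fitted log2 fold change was 0.53 at 30 °C and 0.50 at 37 °C, against -0.0055 and 0.0043 over all 6728 genes fitted. The difference between these medians was 0.54 and 0.50, with library totals as with TMM.

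Single genes seldom passed the test. A gene was called where the log2 fold change was past 1 in either direction and the Benjamini-Hochberg adjusted p of edgeR's quasi-likelihood test stayed below 0.01. At 30 °C 0 of the 137 were called in either direction, beside 1.62% of all genes called higher and 0.788% called lower. DESeq2 called 0 higher as well. At an unadjusted p under 0.05 there were 36 higher, beside 16.6% of all genes, and 0 lower, beside 21.6%. At an adjusted p below 0.05, whatever the fold, 12 were higher, beside 9.5% of all genes. With 1 library left out the calls at 30 °C numbered 10 without clone #1 at 30 °C, 0 without clone #2 at 30 °C, and 5 without clone #1 or without clone #2 at 37 °C. Libraries of the same clone deviated together at both temperatures over 6728 genes (correlation 0.52), but little over the 137 tRNA genes (0.116). With the clone as a block 8 of the 137 were called higher at 30 °C, beside 2.76% of all genes in the same fit. They were SPATRNAPHE.02, SPATRNAASP.02, SPBTRNAARG.06, SPBTRNAGLY.06, SPBTRNAGLU.05, SPCTRNALYS.12, SPCTRNAGLN.06 and SPCTRNAASP.08, for 7 amino acids. In the fit with the block each clone has its own term. Its p-values for pac1-ts against WT, at either temperature, therefore leave out the spread between the clones. SPBTRNAGLU.05, a glutamate tRNA gene, had the lowest adjusted p without the block. It had 6.91 and 8.67 CPM in the pac1-ts clones at 30 °C, against 3.64 CPM in WT. Its log2 fold change was 1.10 ± 0.27 (SE, edgeR adjusted p = 0.0158), and 1.09 with the block (edgeR adjusted p = 0.000416).

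**Figure D2:**
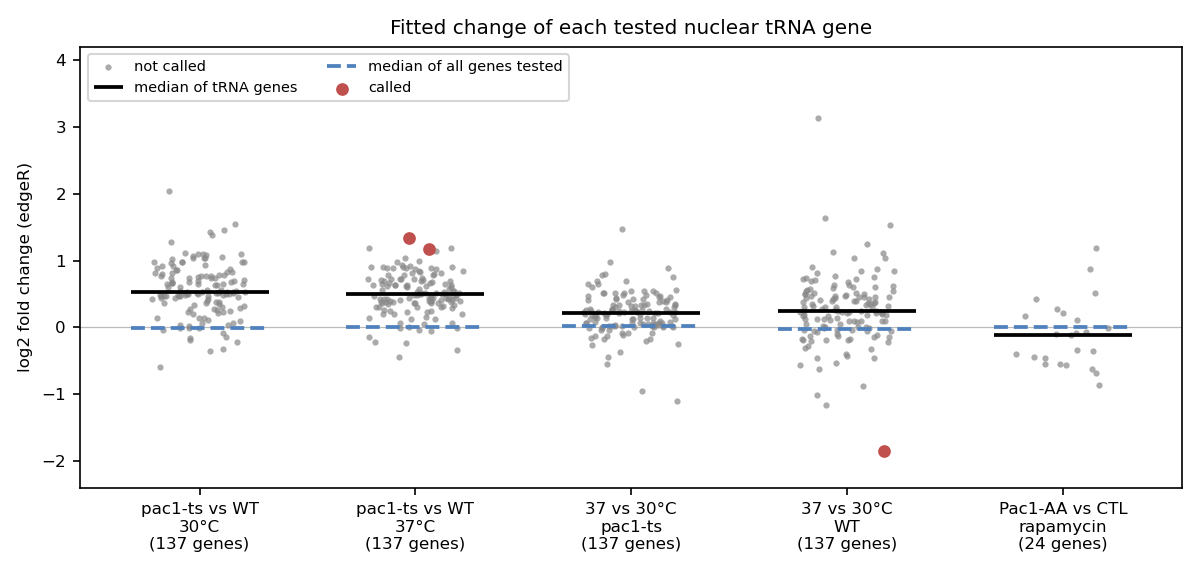
Fitted log2 fold change of each tRNA gene that passed the filter (points) for pac1-ts against WT at 30 °C and at 37 °C, 37 °C against 30 °C in pac1-ts and in WT, and Pac1-AA against CTL. Black bars are medians of the tRNA genes, dashed blue bars medians of all genes fitted, and red points called genes. The pac1-ts columns centre on 0.53 and 0.50, and the red points are 2 higher in pac1-ts at 37 °C and 1 lower in WT at 37 °C.

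At 37 °C 2 tRNA genes were called higher, beside 2.26% of all genes, and 0 lower, beside 0.595%. At an adjusted p below 0.05, whatever the fold, 15 were higher, beside 11.9%. The 2 calls became 4 without clone #1 or without clone #2 at 30 °C, 5 without clone #1 at 37 °C and 1 without clone #2 at 37 °C. SPBTRNALEU.10, a leucine tRNA gene with the anticodon AAG, had 13.9 and 15.7 CPM in the pac1-ts clones at 37 °C, against 5.88 CPM in WT. Both mutant values lay above every other library of the experiment, since the pac1-ts clones at 30 °C had 7.44 and 7.59 CPM and WT at 30 °C had 6.30 CPM. It rose with a log2 fold change of 1.33 ± 0.20 (SE, edgeR adjusted p = 0.000971). The change with heat within pac1-ts was 0.98 ± 0.16 (SE, edgeR adjusted p = 0.000275), just short of the fold threshold. In a fit with no interaction term the mutant change was 0.83 (edgeR adjusted p = 0.0286) and was not called.

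The response of SPBTRNALEU.10 to heat differed between the strains by 1.08 on the log2 scale (standard error 0.30), with an adjusted p of 0.0929 from edgeR, or 0.00738 with the clone as a block. Without the block 0 tRNA genes had a called strain-by-temperature difference, beside 0.713% of all genes called higher and 0.282% called lower. At an unadjusted p under 0.05 there were 1 higher, beside 8.52%, and 4 lower, beside 6.55%, and DESeq2 called 0. With the block SPBTRNALEU.10 was the only such call, beside 1.17% of all genes called higher. The copies of identical mature sequence had lower values than this gene in the pac1-ts clones at 37 °C, also above WT, and the difference between copies was not tested. SPBTRNALEU.08 had 7.67 and 10.4 CPM in the pac1-ts clones at 37 °C, against 7.30 CPM in WT. SPCTRNALEU.11 had 5.16 and 6.17 CPM in the pac1-ts clones at 37 °C, against 4.31 CPM in WT.

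SPBTRNAGLY.03, a glycine tRNA gene with the anticodon GCC and one of 8 identical copies, had 6.57 and 6.29 CPM in the pac1-ts clones at 37 °C, against 2.84 CPM in WT. It rose by a log2 fold change of 1.18 ± 0.27 (SE, edgeR adjusted p = 0.00986). This call was close to the threshold and was lost without pac1-ts clone #1 (edgeR adjusted p = 0.013), without clone #2 (adjusted p = 0.011) and with DESeq2 (adjusted p = 0.0335). It was also lost with RLE factors (edgeR adjusted p = 0.0123), library totals (0.0191), TMM factors from protein-coding genes (0.0127) and a mean count of at least 50 (0.0137). In the fit with no interaction term the log2 fold change was 0.96, short of the fold threshold. At 30 °C the same gene had 4.87 and 5.80 CPM in the pac1-ts clones, against 3.25 CPM in WT. With the clone as a block 4 genes were called higher at 37 °C, beside 3.02% of all genes in that fit, namely these 2, SPBTRNALYS.09 and SPCTRNAHIS.03.

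The 8 tRNA genes with the highest mean CPM in the pac1-ts experiment were SPBTRNALEU.10, scn1, SPATRNASER.04, SPBTRNAGLU.08, SPBTRNAPRO.07, SPBTRNAGLN.01, SPBTRNATRP.02 and SPATRNALYS.04. All had more CPM in both pac1-ts clones than in WT at each temperature, beside 40.2% of all genes at 30 °C and 41.3% at 37 °C. The margins varied from gene to gene. Most libraries of this mean are mutant, so the choice favours genes high in pac1-ts and the values describe these genes only. SPATRNASER.04, for serine, had 9.13 and 13.5 CPM in the pac1-ts clones at 37 °C, against 5.99 CPM in WT. At 30 °C it had 8.89 and 11.7 CPM in the pac1-ts clones, against 5.97 CPM in WT. SPBTRNAPRO.07, for proline, had 7.77 and 7.97 CPM in the pac1-ts clones at 30 °C, against 7.14 CPM in WT. The clones thus lay close above WT for this gene at 30 °C, with a log2 fold change of 0.14 (edgeR adjusted p = 0.697). At 37 °C it had 9.75 and 12.8 CPM in the pac1-ts clones, against 6.51 CPM in WT, with a log2 fold change of 0.79 (edgeR adjusted p = 0.0284).

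The medians of genes with and without an intron were close to each other. The 33 fitted genes with an intron had a median log2 fold change of 0.56 at 30 °C and 0.44 at 37 °C in pac1-ts against WT. The 104 without an intron had 0.53 and 0.51. Genes with a mature sequence of their own and genes in families both had a median of 0.53 at 30 °C.

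SPATRNAMET.02, SPBTRNAASP.04 and SPBTRNAHIS.02 are the tRNA genes in the study's list of genes that overlap Pac1-associated loci in ChIP. None of them was called in pac1-ts. In Pac1-AA only SPBTRNAHIS.02 had enough counts to be fitted, and it was not called. SPATRNAMET.02, for methionine, had 2.63 and 3.70 CPM in the pac1-ts clones at 30 °C, against 1.88 CPM in WT (log2 fold change 0.75, edgeR adjusted p = 0.202). SPBTRNAHIS.02, for histidine, had 4.28 and 5.48 CPM in the pac1-ts clones at 30 °C, against 3.44 CPM in WT (log2 fold change 0.51, edgeR adjusted p = 0.278). Both clones lay above WT for these genes at 30 °C. SPBTRNAASP.04, for aspartate, had 0.724 and 1.85 CPM in the pac1-ts clones at 30 °C, on either side of 0.909 CPM in WT. At 37 °C SPATRNAMET.02 had 2.66 and 4.02 CPM in the pac1-ts clones, against 2.47 CPM in WT. SPBTRNAASP.04 had 1.15 and 1.59 CPM in the clones at 37 °C, against 0.998 CPM in WT. SPBTRNAHIS.02 had 4.90 and 6.91 CPM in the clones at 37 °C, on either side of 5.04 CPM in WT.

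At 30 °C the 5S rRNA sum, the srp7 RNA and the share of rRNA were higher in both pac1-ts clones than in WT, as the tRNA sum was, and the U6 RNA snu6 was lower in both. The 36 genes of 5S rRNA summed to 133 and 169 CPM in the pac1-ts clones at 30 °C, against 92.1 CPM in WT, and 0 of them were called by edgeR. At 37 °C they summed to 158 and 192 CPM in the pac1-ts clones, against 122 CPM in WT. The share of counts on rRNA genes was 14.9% and 14.7% in the pac1-ts clones at 30 °C, against 11.3% in WT, and 16.4% and 17.6% at 37 °C, against 11.4%. Libraries of this kit are depleted of rRNA, and the part of that depletion in the tRNA sums was not tested. The signal recognition particle RNA srp7 had a log2 fold change of 0.66 at 30 °C (edgeR adjusted p = 0.00587), and the U6 RNA snu6 had -1.33 (edgeR adjusted p = 0.0196). At 30 °C transcripts of this polymerase thus did not all lie on the same side of WT. At 37 °C snu6 lay above WT instead, with 127 and 79.8 CPM in the pac1-ts clones, against 58.5 CPM in WT. The srp7 RNA had 2944 and 2868 CPM in the pac1-ts clones at 37 °C, against 2316 CPM in WT.

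Genes for the factors that make and process tRNA were seldom called in pac1-ts against WT, as were all genes. Of all genes, 1.62% were called higher and 0.788% lower at 30 °C, and 2.26% and 0.595% at 37 °C. With lists this short the counts below do not set these genes apart. Of 13 RNA polymerase III subunit genes and 9 fitted genes for TFIIIB, TFIIIC and the repressor Maf1, 0 were called at either temperature. Of 14 fitted genes for end processing, 1 was called, at 30 °C. It was rrk1, the RNA subunit of RNase P, with a log2 fold change of -1.13 ± 0.16 (SE, edgeR adjusted p = 0.000611). At 37 °C the value was -0.26 (edgeR adjusted p = 0.26). Of 6 splicing genes and 13 fitted genes for surveillance and export, 0 were called at either temperature.

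The heat comparison asks how tRNA genes respond to 2 h at 37 °C in each strain. The summed level was a little higher at 37 °C in every strain. It was 621 CPM at 37 °C against 512 CPM at 30 °C in pac1-ts clone #1, 749 against 664 CPM in clone #2 and 470 against 398 CPM in WT. These are folds of 1.21, 1.13 and 1.18, which became 1.52, 1.34 and 1.58 with library totals. The scaling moved all genes alike, since with library totals the median log2 change of all genes fitted was 0.30 in pac1-ts and 0.40 in WT. Relative to the median of all genes, the median of the tRNA genes fitted was 0.20 higher in pac1-ts and 0.26 higher in WT, with either scaling.

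In WT 0 tRNA genes were called higher with heat by edgeR's quasi-likelihood test, beside 5.87% of all genes, and 1 was called lower, beside 4.49%. At an unadjusted p under 0.05 there were 11 higher, beside 22.5%, and 1 lower, beside 28.9%. With the clone as a block 3 were called higher, beside 6.7% of all genes, SPATRNAPHE.02, SPATRNAALA.05 and SPBTRNALEU.07, and 1 lower, beside 4.59%. Calls higher in WT numbered 2 without pac1-ts clone #2 at 37 °C and 1 without any other mutant library, each of which lends its spread to the fit. In pac1-ts 0 were called in either direction, beside 6.29% and 4.8% of all genes called higher and lower. At an unadjusted p under 0.05 there were 14 higher, beside 29.3%, and 2 lower, beside 32.3%. Calls higher in pac1-ts numbered 3 without clone #2 at 30 °C, 1 without clone #1 or without clone #2 at 37 °C and 0 without clone #1 at 30 °C. DESeq2 called 0 higher and 0 lower in either strain.

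The gene called lower was SPATRNASER.01, the serine gene with the anticodon CGA printed above with its methionine partner. It had 0.945 CPM in WT at 37 °C against 3.44 CPM at 30 °C, from 18 and 53 counts. It fell by 1.86 on the log2 scale (standard error 0.48, edgeR adjusted p = 0.00865). The pac1-ts clones had 0.939 and 1.42 CPM at 37 °C, against 2.70 and 1.85 CPM at 30 °C, with a log2 fold change of -0.95 (edgeR adjusted p = 0.0363). The 37 °C libraries of all strains thus lay below all 30 °C libraries. In WT the call was lost with library totals, with a log2 fold change of -1.44 (edgeR adjusted p = 0.0302), with TMM factors from protein-coding genes, with -1.74 (edgeR adjusted p = 0.0167), and with DESeq2. At a mean count of at least 50 the gene was not fitted.

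The partner gene SPATRNAMET.01, 7 bases downstream, did not show the same fall in its counts. It had 5.25 CPM in WT at 37 °C against 3.96 CPM at 30 °C. In the pac1-ts clones it had 5.32 and 7.31 CPM at 37 °C, against 3.62 and 7.08 CPM at 30 °C. It is 1 of 4 identical copies, and 32.2% of the 50-base stretches that overlap it, flanks included, are unique. By default the counting leaves out fragments that map to more than 1 gene. The counts of such a pair therefore do not measure a precursor that spans both genes.

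The other serine genes that lie upstream of a methionine gene gave a mixed picture. The gene sup9 (SPCTRNASER.11, anticodon TGA) had 0.835 and 0.963 CPM in the pac1-ts clones at 37 °C, against 1.84 and 2.04 CPM at 30 °C. In WT it had 0.893 CPM at 37 °C against 1.82 CPM at 30 °C, so that the temperatures did not overlap. In pac1-ts its log2 fold change was -1.11 ± 0.34 (SE, edgeR adjusted p = 0.0146), and -1.11 with the clone as a block (edgeR adjusted p = 0.00429), which passed the threshold. In WT it was -1.02 (edgeR adjusted p = 0.108).

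The third serine gene of this kind, sup3 (SPATRNASER.03, anticodon TGA), overlapped between the temperatures in pac1-ts, with 0.835 and 1.13 CPM at 37 °C against 0.790 and 1.28 CPM at 30 °C. In WT it had 0.893 CPM at 37 °C against 1.30 CPM at 30 °C. The downstream partner of sup9, imt07, had 6.83 and 8.67 CPM in the pac1-ts clones at 37 °C, against 6.98 and 7.14 CPM at 30 °C. Each downstream methionine gene had a higher CPM than its upstream serine gene in all 6 pac1-ts libraries. In the anchor-away libraries, at low counts, the order was the reverse for sup3 and sup9. There sup3 had 0.497 to 0.625 CPM and its partner SPATRNAMET.03 had 0 to 0.115 CPM. The values were 0.404 to 0.833 CPM for sup9 and 0.0311 to 0.145 CPM for imt07. For SPATRNASER.01 and SPATRNAMET.01 the order varied, with 0.990 and 0.260 CPM in CTL replicate 1 and 0.342 and 0.373 CPM in CTL replicate 2.

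**Figure D3:**
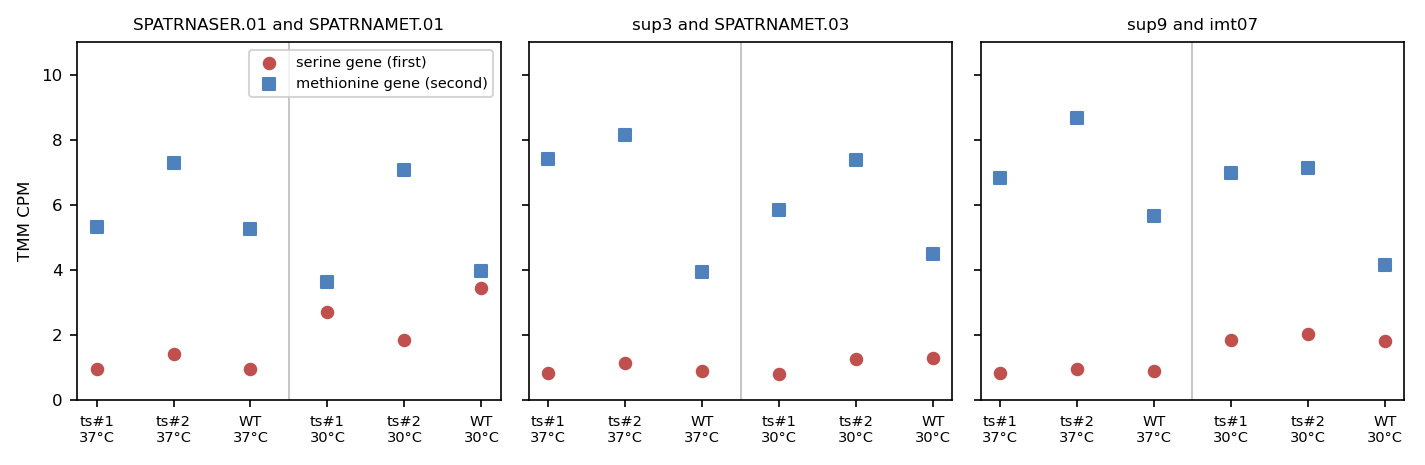
TMM-scaled CPM of the 3 head-to-tail Ser and Met pairs in the 6 pac1-ts libraries, with 37 °C left of 30 °C and 1 point per library. The upstream genes SPATRNASER.01 and sup9 lie lower in every 37 °C library than in any 30 °C library, whereas sup3 overlaps and the Met partners lie higher throughout.

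SPBTRNAMET.05, the upstream gene of the fourth pair, stood 5 bases before SPBTRNAASN.01. It had 1.20 and 0.740 CPM in the pac1-ts clones at 37 °C, against 0.724 and 0.893 CPM at 30 °C, and the values overlapped. SPBTRNAASN.01, for asparagine, had 1.72 and 0.793 CPM in the pac1-ts clones at 37 °C, against 0.395 and 0.510 CPM at 30 °C. Its log2 fold change in pac1-ts was 1.47 (edgeR adjusted p = 0.0286), and 1.45 with the clone as a block (edgeR adjusted p = 0.00793), which passed the threshold. Together with sup9 it made up the calls under the block in pac1-ts, 1 higher and 1 lower, beside 6.44% and 4.86% of all genes in that fit.

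The anchor-away comparison asks how tRNA genes respond when Pac1 is taken out of the nucleus for 2 h. The summed level did not separate the strains. The sums were 17.0 and 17.8 CPM in Pac1-AA, against 20.6 and 17.8 CPM in CTL, with means of 17.4 ± 0.609 and 19.2 ± 2.00 CPM (SD, n = 2 each). These sums rest on 882 and 986 counts in Pac1-AA and on 395 and 571 counts in CTL. With so few counts 52 and 47 of the 171 genes were at 0 in Pac1-AA and 80 and 75 in CTL, and 3 counts correspond to 0.0563 to 0.151 CPM. Changes of single genes were mostly not detectable at this depth.

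Of the 171 genes, 25 were higher in both Pac1-AA libraries than in both CTL libraries, beside 29.9% of the genes of the table, 20 were lower, beside 28.2%, and 126 overlapped. The filter kept 24 genes, and the 147 left out held 37.8% of the tRNA counts. Among the 24, 0 were called by edgeR's quasi-likelihood test, beside 0.616% of all genes called higher and 0.221% called lower. At an unadjusted p under 0.05 there were 1 higher, beside 16.8%, and 2 lower, beside 18.2%, and DESeq2 called 0. Their fitted log2 fold changes ran from -0.86 to 1.19 with a median of -0.11, against 0.0046 over all genes. That median changed sign without CTL replicate 1 (0.20) and was -0.52 without Pac1-AA replicate 2.

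The gene with the most counts was spl1, a proline tRNA gene with a 24-base intron. It had 1.69 and 1.66 CPM in Pac1-AA, against 2.86 and 2.21 CPM in CTL, without overlap. Its log2 fold change was -0.55 ± 0.18 (SE, edgeR adjusted p = 0.0537). SPCTRNAPHE.04, for phenylalanine, had the most negative value, -0.86 ± 0.31 (SE, edgeR adjusted p = 0.0848). SPATRNASER.04 had the highest, with 0.288 and 0.253 CPM in Pac1-AA against 0.104 and 0.124 CPM in CTL, and a log2 fold change of 1.19 ± 0.49 (SE, edgeR adjusted p = 0.126). None of the 3 passed the test, and SPATRNASER.04 was near the limit of 3 counts in CTL.

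Of the tRNA genes at Pac1-associated loci, SPBTRNAHIS.02 alone was fitted in the anchor-away libraries. It had a log2 fold change of -0.34 (edgeR adjusted p = 0.582). SPBTRNAASP.04 had 0 counts in all 4 libraries. No gene of the polymerase, factor, processing, splicing or surveillance lists was called in Pac1-AA, beside 0.616% of all genes called higher and 0.221% lower. The rrk1 gene had a log2 fold change of -0.88 ± 0.051 (SE, edgeR adjusted p = 2.66e-06), short of the fold threshold.

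The exonuclease comparison asks which transcripts gain when Dis3, Dhp1 or both are depleted. Before the results it must be said that the counts of the targeted genes go against some of the labels. The dis3 gene had 222 CPM in the library labelled Pnmt81-dhp1 Pnmt81-dis3, 153 CPM in the library labelled Pnmt81-dis3, 142 CPM in the library labelled Pnmt81-dhp1 and 202 CPM in WT. The dhp1 gene had 333, 370, 142 and 180 CPM in the same order. The dhp1 transcript was thus not lower than WT in the library labelled for both genes, nor was dis3. With 1 library per strain no test across strains exists, and a ratio compares 2 libraries, with 95% Clopper-Pearson intervals that cover counting error only.

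The tRNA genes were far more abundant in the libraries labelled Pnmt81-dhp1 Pnmt81-dis3 and Pnmt81-dis3 than in WT. The 171 genes together had 3411 counts in the library labelled Pnmt81-dhp1 Pnmt81-dis3, 1717 in the library labelled Pnmt81-dis3, 113 in the library labelled Pnmt81-dhp1 and 43 in WT. After TMM scaling the sum was 69.3-fold higher (interval 51.3 to 95.9) in the library labelled Pnmt81-dhp1 Pnmt81-dis3 than in WT. It was 29.9-fold higher (22.1 to 41.5) in the library labelled Pnmt81-dis3 and 1.90-fold higher (1.33 to 2.76) in the library labelled Pnmt81-dhp1. Between the first pair of libraries the fold was 2.32 (2.19 to 2.46). A single gene, scn1, held 46.9% of the tRNA counts in the library labelled Pnmt81-dhp1 Pnmt81-dis3. Without it the sum was 37.6-fold above WT in that library and 26.5-fold in the library labelled Pnmt81-dis3, and the fold between these libraries was 1.42.

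Of the 171 genes, 83 had a higher scaled count in the library labelled Pnmt81-dhp1 Pnmt81-dis3 than in WT, beside 47.7% of the genes of the table, 3 had a lower one, beside 46.2%, and 85 were at 0 in both. In the library labelled Pnmt81-dis3 83 were higher, beside 48.2%, 2 lower, beside 45.7%, and 86 at 0 in both. In the library labelled Pnmt81-dhp1 27 were higher, beside 49%, 14 lower, beside 44%, and 130 at 0 in both. WT itself had counts for few genes, with 156 of the 171 at 0, so that most folds are lower bounds.

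A minimum of 20 counts over the 4 libraries was met by 31 tRNA genes. With a pseudocount of 0.5 on the scaled counts, 30 of these were past 2-fold higher in the library labelled Pnmt81-dhp1 Pnmt81-dis3 than in WT, beside 25.9% of all genes, and 0 past 2-fold lower, beside 19.1%. Where the counting interval also had to exclude no change, 27 were higher, beside 25.2%, and 0 lower, beside 18.8%. In the library labelled Pnmt81-dis3 29 were past 2-fold higher, beside 25.1%, and 0 lower, beside 19.7%. With the interval 26 were higher, beside 24.1%, and 0 lower, beside 19.4%. In the library labelled Pnmt81-dhp1 15 were higher, beside 17.7%, and 5 lower, beside 11%, and with the interval 4 were higher, beside 15.9%, and 2 lower, beside 10.7%. Against the library labelled Pnmt81-dhp1, the library labelled for both genes had 29 higher, beside 23.5%, and 1 lower, beside 18.5%. With the interval these were 28, beside 22.9%, and 0, beside 18.3%. Against the library labelled Pnmt81-dis3 it had 8 higher, beside 7.21%, and 2 lower, beside 3.3%, and with the interval 7, beside 6.8%, and 2, beside 3%. These 31 genes were kept on the same counts, so the numbers describe them only.

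**Figure D4:**
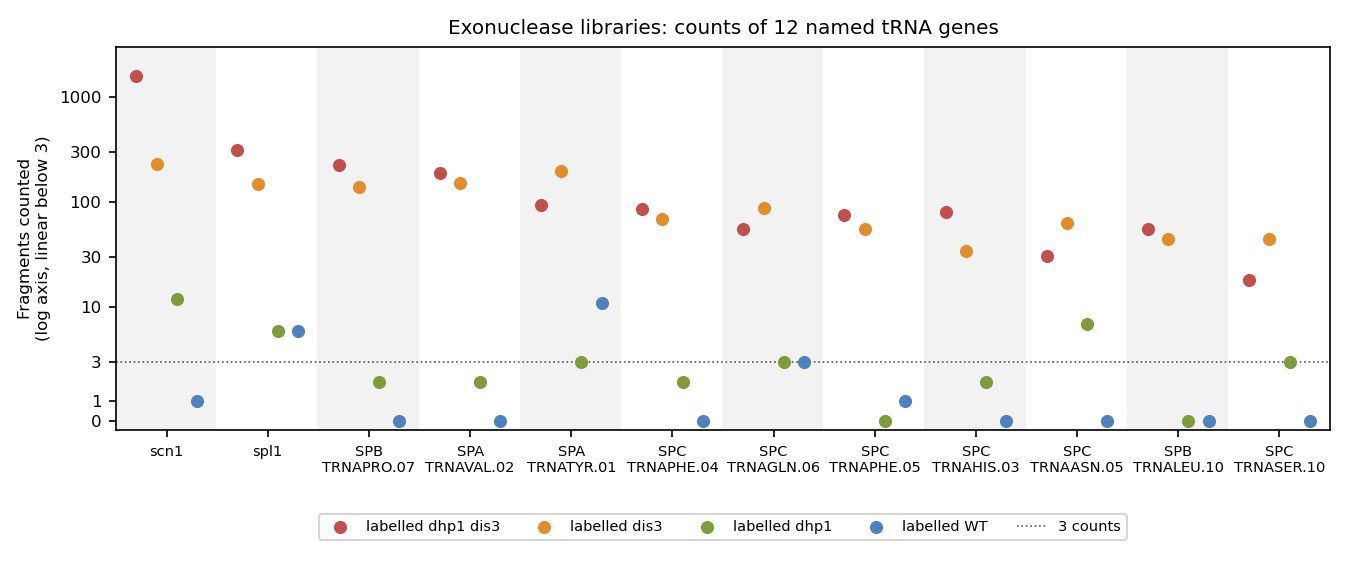
Counts (y axis, logarithmic above the dotted line at 3 counts and linear below it) of 12 tRNA genes along the x axis, with 1 point for each of the 4 exonuclease libraries. For every gene drawn, the libraries labelled Pnmt81-dhp1 Pnmt81-dis3 and Pnmt81-dis3 lie above the library labelled Pnmt81-dhp1 and above WT, with scn1 at 1601 counts in the first.

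The alanine tRNA gene scn1 had 1601 counts in the library labelled Pnmt81-dhp1 Pnmt81-dis3, 232 in the library labelled Pnmt81-dis3, 12 in the library labelled Pnmt81-dhp1 and 1 in WT. The ratio of the first to WT was 1398 (interval 251 to 55271), and its width reflects the single count in WT. Between the libraries labelled Pnmt81-dhp1 Pnmt81-dis3 and Pnmt81-dis3 the ratio was 8.05 (7.01 to 9.28), the highest of the 31 genes. The gene overlaps SPAC3G9.12 on the opposite strand, and fragments were counted by strand. In the pac1-ts experiment the same gene had 7.51 and 9.31 CPM in the pac1-ts clones at 30 °C, against 6.10 CPM in WT.

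Proline, valine and phenylalanine genes followed. SPBTRNAPRO.07 had 227 counts in the library labelled Pnmt81-dhp1 Pnmt81-dis3, 139 in the library labelled Pnmt81-dis3, 2 in the library labelled Pnmt81-dhp1 and 0 in WT. It was at least 66.1-fold higher in the first and at least 34.7-fold higher in the second than in WT, taking 3 counts in WT as the floor. SPATRNAVAL.02 had 188, 153, 2 and 0 counts in the same order of libraries, which is at least 54.7-fold and at least 38.2-fold. It differed little between the libraries labelled Pnmt81-dhp1 Pnmt81-dis3 and Pnmt81-dis3, with a ratio of 1.43 (1.15 to 1.79). SPCTRNAPHE.04 had 87, 69, 2 and 0 counts, at least 25.3-fold and at least 17.2-fold above WT.

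The intron-bearing gene spl1 had 317 counts in the library labelled Pnmt81-dhp1 Pnmt81-dis3, 149 in the library labelled Pnmt81-dis3, 6 in the library labelled Pnmt81-dhp1 and 6 in WT. It was 46.1-fold higher (21.0 to 127) in the first and 18.6-fold higher (8.34 to 51.5) in the second than in WT. In the library labelled Pnmt81-dhp1 the ratio to WT was 0.722 (0.193 to 2.70), so that no difference was detectable there. As a class the 44 genes with an intron had 582, 509, 21 and 18 counts in this order of libraries. The 127 without an intron had 2829, 1208, 92 and 25 counts, or 1228, 976, 80 and 24 without scn1.

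Some genes had more counts in the library labelled Pnmt81-dis3 than in the one labelled for both genes. SPATRNATYR.01, a tyrosine tRNA gene with a 10-base intron, had 94 counts in the library labelled Pnmt81-dhp1 Pnmt81-dis3, 200 in the library labelled Pnmt81-dis3, 3 in the library labelled Pnmt81-dhp1 and 11 in WT. Its ratio between the first pair was 0.548 (0.424 to 0.704). It was also the most counted tRNA gene in WT, and its ratio to WT in the library labelled Pnmt81-dhp1 was 0.197 (0.0353 to 0.746). It overlaps SPAC105.03c on the opposite strand. SPCTRNASER.10, for serine, had 18, 45, 3 and 0 counts in this order, with a ratio of 0.467 (0.254 to 0.822) between the first pair. SPCTRNAASN.05, for asparagine, had 31, 64, 7 and 0 counts, with a ratio of 0.565 (0.356 to 0.881).

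The histidine gene SPCTRNAHIS.03 and the leucine gene SPBTRNALEU.08 leaned the other way. SPCTRNAHIS.03 had 81 counts in the library labelled Pnmt81-dhp1 Pnmt81-dis3, 34 in the library labelled Pnmt81-dis3, 2 in the library labelled Pnmt81-dhp1 and 0 in WT. Its ratio between the first pair was 2.78 (1.84 to 4.28). SPBTRNALEU.08 had 40, 10, 1 and 0 counts, with a ratio of 4.67 (2.29 to 10.5). The tRNA genes therefore did not share one ratio between these libraries.

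Other RNA polymerase III transcripts were uneven in the same libraries. The U6 RNA snu6 had 3347 counts in the library labelled Pnmt81-dhp1 Pnmt81-dis3, 4108 in the library labelled Pnmt81-dis3, 19 in the library labelled Pnmt81-dhp1 and 9 in WT. The 36 genes of 5S rRNA had 545, 581, 104 and 76 counts in this order. The srp7 gene had 937, 1171, 241 and 349 counts. The rRNA genes took 0.930%, 2.27%, 3.27% and 2.32% of the counts in the same order, and the part of rRNA depletion in the tRNA values was not tested.

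Within families of identical tRNAs, the counts of the exonuclease libraries sat mostly on 1 copy. Of 12 families with at least 20 counts in the library labelled Pnmt81-dhp1 Pnmt81-dis3, 1 copy held over 50% of the family's counts in 10. For pairs this count says little, since 1 copy always holds at least 50%. The pairs were alanine TGC, valine TAC, glutamine TTG and leucine TAA, where the top copy held 99.9%, 100%, 93.2% and 100%. The same share was not counted in the pac1-ts libraries. In the alanine TGC pair printed above, scn1 had 1601 counts and scn2 had 1, and in the library labelled Pnmt81-dis3 they had 232 and 1. In pac1-ts clone #1 at 30 °C the same pair had 114 and 23 counts, a ratio of 4.96. In the tyrosine GTA family of 3, SPATRNATYR.01 had all 94 counts, whereas in pac1-ts clone #1 at 30 °C its copies differed by 1.82 times.

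The same contrast held for the glutamine TTG pair, where SPCTRNAGLN.06 had 55 counts and SPCTRNAGLN.05 had 4, and where the copies differed by 1.16 times in pac1-ts clone #1 at 30 °C. In the proline AGG family of 6, SPBTRNAPRO.07 had 227 of 249 counts and the next copy 12. This family was uneven in pac1-ts clone #1 at 30 °C as well. Its highest copy stood there in a ratio of 118 to the lowest, which was at 0 and taken as 1 count. In the library labelled Pnmt81-dhp1 Pnmt81-dis3 the phenylalanine GAA family of 4 was an exception, with 87 counts for SPCTRNAPHE.04 and 75 for SPCTRNAPHE.05. The valine TAC pair was uneven in both kinds of library, with 188 counts for SPATRNAVAL.02 against 0 for SPCTRNAVAL.11, and a ratio of 23.3 in pac1-ts clone #1 at 30 °C. The kits, strains and media supplements differ between these experiments, and what part of the contrast each one has cannot be told apart.

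**Figure D5:**
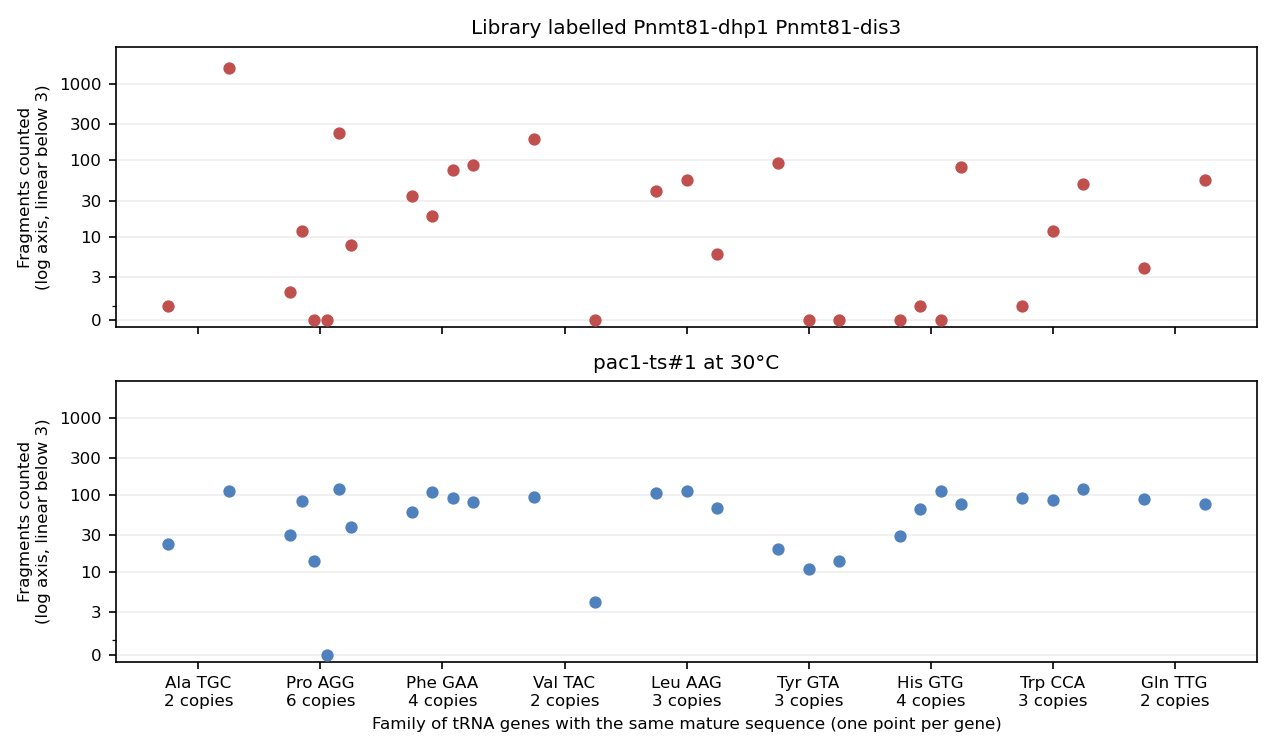
Counts of each copy in 9 families of identical mature tRNA sequence, 1 point per copy, in the library labelled Pnmt81-dhp1 Pnmt81-dis3 (top) and in pac1-ts clone #1 at 30 °C (bottom). In the top panel 1 copy dominates most families, as in the alanine pair with 1601 and 1 counts, and in the bottom panel the same pair has 114 and 23.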

How the data were processed

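The 14 libraries were grouped by the sample labels. As deposited by the authors, the data are a single table of raw counts, whole numbers of fragments for each gene with no normalization. Per the study's methods, reads were trimmed with Trimmomatic, mapped with HISAT2 on ASM294v2 and counted by strand with featureCounts, which by default leaves out fragments that map to several places or to more than 1 gene. That choice lowers or empties counts of identical tRNA copies. A Zymo-Seq RiboFree kit was used for pac1-ts libraries, and TruSeq after RiboZero depletion for the rest. Gene lengths in the table, as deposited, were not used for values.

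The tests were run on these counts with edgeR 4.0.16 in R 4.3.3, with TMM factors, a filter on low counts (filterByExpr, minimum count 10), a quasi-likelihood fit across all genes and Benjamini-Hochberg adjustment. Strain was the term of the anchor-away fit. For pac1-ts the terms were strain, temperature and the interaction over 6 libraries, and the spread comes from the clones, since WT had 1 library per temperature. For the exonuclease libraries, TMM-scaled counts plus 0.5 gave log2 ratios between libraries for genes with at least 20 counts, without p-values. A fold against 0 uses a floor of 3 counts per library, and neither intervals nor floors cover more than counting error, since PCR copies are not independent molecules. Libraries of the same pac1-ts clone deviated together at both temperatures (correlation 0.52 over 6728 genes and 0.116 over 137 tRNA genes), and the clone pairs them. With the clone as a block, the p-values for pac1-ts against WT leave out the spread between the clones. The count tests were tested on simulated data.

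The genes named are the 8 with the highest mean CPM in each experiment and the called genes whose groups do not overlap. Also named are the 5 largest rises and falls per exonuclease comparison among genes with at least 50 counts. So are the tRNA genes at Pac1-associated loci and the head-to-tail pairs. SPBTRNAGLU.05, the copies of SPBTRNALEU.10, the extremes of the anchor-away fit and the genes called only with the clone as a block were named after their values were seen. The members and all lists were chosen with earlier results of these data known. Of the aminoacyl-tRNA synthetases only 4 genes matched by product name, and that list was not used. Alternatives were DESeq2 1.42.0, RLE factors, library totals, TMM from protein-coding genes, other filters and thresholds, the clone or replicate number as a block, no interaction term and each mutant or CTL library left out.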

Additional observations from a re-analysis of the deposited data

How the results depend on the processing

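No call changed direction under the alternatives tried. The median of the 24 anchor-away genes was 0.17 with DESeq2, 0.15 with no filter on low counts and -0.55 at a mean count of at least 50, and ran from -0.52 to 0.20 with 1 library left out. Calls in Pac1-AA remained 0 under every alternative, including the replicate number as a block (the numbers do not pair these libraries, with a correlation of 0.0643).

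For pac1-ts against WT, calls at 30 °C numbered 8 with the clone as a block, 7 at an adjusted p below 0.05, and 0 to 10 with 1 library left out. At 37 °C they numbered 1 with DESeq2, RLE factors, library totals, TMM from protein-coding genes or a mean count of at least 50, 0 with no interaction term, 4 with the block or at an adjusted p below 0.05, and 1 to 5 with 1 library left out. The block gave 1 strain-by-temperature call and, beside those given here for heat, changed no other call. For heat in WT, calls higher numbered 4 with library totals, 3 with the block, 5 at an adjusted p below 0.05 and 1 to 2 with 1 library left out. Calls lower numbered 0 with DESeq2, library totals, TMM from protein-coding genes or a mean count of at least 50, and 2 with no interaction term. For heat in pac1-ts, calls higher numbered 1 with library totals, TMM from protein-coding genes, the block, a log2 threshold of 0.5 or none, or an adjusted p below 0.05, and 0 to 3 with 1 library left out. Calls lower numbered 1 with the block or at an adjusted p below 0.05 and 2 with no interaction term. With library totals the heat medians were 0.66 in WT and 0.50 in pac1-ts. Single calls were lost in 11 cases, of SPBTRNAGLY.03, SPBTRNALEU.10 or SPATRNASER.01. A WT library could not be left out, since each temperature has 1.

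For the exonuclease libraries the low counts set the values. With a pseudocount of 5 the median log2 ratios were 1.96 (library labelled Pnmt81-dis3 against WT), 2.48 (both genes against WT) and 2.55 (both against Pnmt81-dhp1). At 5 counts or more they were 3.28, 3.61 and 3.94, with 58, 59 and 58 genes past 2-fold higher, and at 50 or more 5.81, 6.03 and 5.38, with 16 genes each. The median for both against Pnmt81-dhp1 was 4.33 with library totals, where the fold of the sums was 26.4, and 21.7 without scn1. The other sums without scn1 were 37.6 for both against WT and 1.42 for both against Pnmt81-dis3. For the library labelled Pnmt81-dhp1 against WT, genes past 2-fold higher numbered 3 with a pseudocount of 5, 9 at 50 counts or more and 4 with the interval required, and lower 2, 2 and 2, or 8 at 5 counts or more. Its median was 1.48 at 50 counts or more. For both against Pnmt81-dis3 there were 21 higher and 5 lower at 5 counts or more, 4 higher and 1 lower at 50 or more, and 1 lower with a pseudocount of 5. For both against Pnmt81-dhp1 the genes lower numbered 2 at 5 counts or more and 0 with RLE factors, TMM from protein-coding genes, a pseudocount of 5, 50 counts or more, or the interval required. The cause of these differences was not tested beyond the change in genes kept. In 12 further cases the log2 ratio of a single gene moved, all with a pseudocount of 5. The sums without scn1 and with library totals were chosen after seeing the data.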
